A study of Drosophila melanogaster with 10 samples.

Results

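The cytochrome P450 genes of Drosophila were followed in RNA from S2 cells, which are cultured cells derived from the embryo. Members were taken by gene symbol alone, as every symbol of the Cyp family pattern (81 genes) and the ecdysone synthesis genes phm, dib, sad, shd, spo and spok (6 genes). This gave 87 genes of 15240 in the table, on 101 transcript entries, all of the protein-coding type. The study asked how clusters of Polycomb group proteins in the nucleus relate to chromatin contacts and gene expression. It used S2 cells with transgenes of the Polycomb group protein Polyhomeotic (Ph) or of a polymerization-defective form. It also mapped where both forms bind chromatin. Its series holds 10 samples in 5 groups of 2 replicates, of which the 2 libraries of the S2 RNA group were used here while the remaining 8, from chromatin, were left aside. The S2 RNA group carries the label WT for genotype and holds neither transgene. Per the labels the cells were grown in ESF-921 medium and copper sulphate (0.5 mM) was given over 3 days. Both libraries share this treatment, so an effect of copper cannot be told apart from the level of the line.

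P450 enzymes are haem proteins that insert an oxygen atom into small lipophilic molecules. Most insect members sit in the membrane of the endoplasmic reticulum and take electrons from the reductase Cpr, whereas a smaller clan lies in mitochondria and takes them from a ferredoxin and its reductase dare. Insects use the family to make and break down the moulting hormone ecdysone, to make cuticular hydrocarbons, and to detoxify plant compounds and insecticides. Many members are induced by foreign compounds, and detoxifying members are best known from the fat body, gut and Malpighian tubules. The clans, named CYP2, CYP3, CYP4 and mitochondrial, are branches of the family tree shared by insects.

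Levels are given in RPKM, in which reads are scaled to transcript length and library size, as the median over the transcript entries of a gene. Library sizes were recovered from the RPKM, which move in steps of whole reads, and came to 37054213 and 9495835 reads, so that replicate 1 was 3.9 times as deep. On a transcript of 1.7 kb, 3 reads are worth 0.0476 and 0.186 RPKM in replicates 1 and 2. Read numbers below are the smallest that explain the values, and intervals and limits cover counting error only. In the cells as a whole, blood cell markers fixed for comparison had 6 of 10 genes at 1 RPKM or more, with Pvr at 71.1 ± 2.15 RPKM (SD, n = 2) and He at 0.0401 and 0 RPKM. None of the 6 fat body markers reached 1 RPKM, and their summed levels in the libraries were 1.21 and 0.381 RPKM. Of all genes, 49.5% had a mean of at least 1 RPKM.

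Fewer P450 genes than genes in general reached 1 RPKM. Of the 87 genes, 21 (24.1%) had a mean of at least 1 RPKM, where 49.5% of all genes did, and 7 (8.05%) reached 5 RPKM, where 29.5% of all genes did. Among genes with a protein-coding entry alone the same shares were 50.9% and 30.4%. The 21 genes held 87.9% of the summed level of the family, and the first 5 held more than 50%. The matching shares over all genes were not computed, so these values do not set the family apart. The median member stood at 0.273 RPKM, with replicate medians of 0.353 and 0.197 RPKM, and the median of all genes was 0.919 RPKM. In bulk RNA a low level in every cell and a high level in few cells cannot be told apart.

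Most of the remaining 66 members had reads in at least 1 library. No background level was estimated, so low expression and stray reads cannot be told apart. Between 0.1 and 1 RPKM lay 37 members (42.5%), a range that held 19.3% of all genes. A further 26 members (29.9%) were above 0 and under 0.1 RPKM, against 19.9% of all genes, by the mean of the libraries. Counted in each library alone, a choice made after seeing the data, there were 21 of 87 members in replicate 1 alone (all genes 16.7%) and 8 of 87 in replicate 2 alone (all genes 7.53%). The share of members was thus nearer to that of all genes in replicate 2. Listed at 0 in replicate 2 alone were 18 members (20.7%, all genes 15.3%) and in replicate 1 alone phm and Cyp4ad1 (2.3%, all genes 1.16%). Another 3 were listed at 0 in both libraries, which is 3.45% of the family against 11.2% of all genes. Those 3 were Cyp308a1, Cyp6a18 and Cyp4d21, the last known as a male-biased gene of the fly head.

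**Figure D1:**
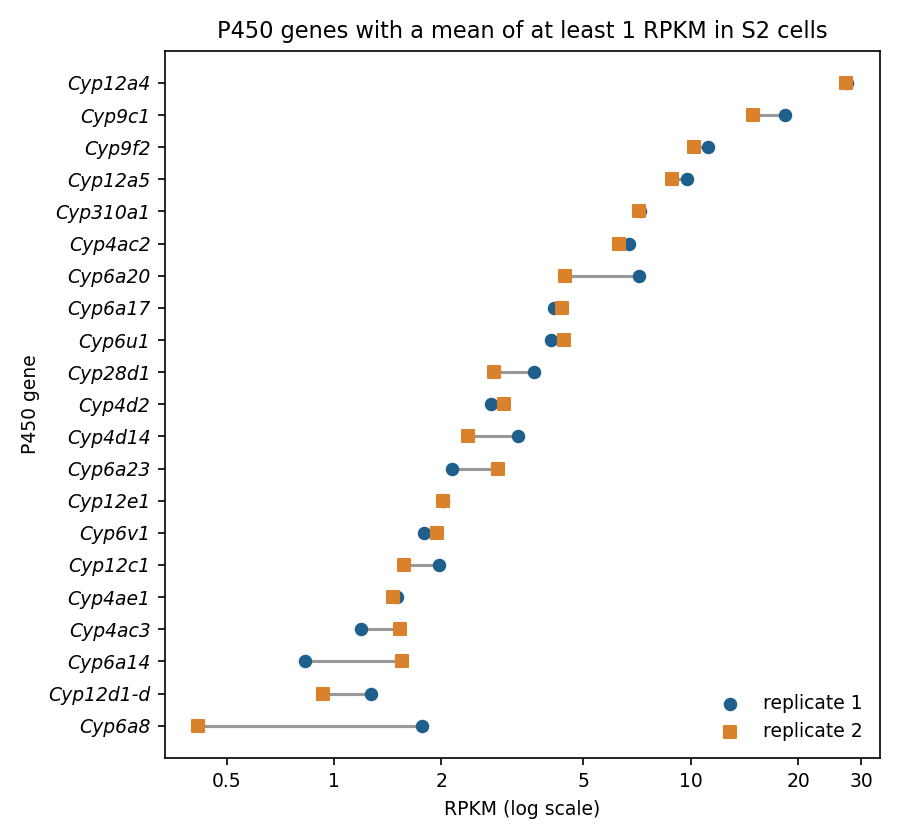
RPKM of the 21 P450 genes whose mean reached 1 RPKM, on a log axis, with replicate 1 as circles and replicate 2 as squares joined by a line. Cyp12a4 lies highest at 27.4 and 27.2 RPKM, and the widest gap is that of Cyp6a8, at 1.76 and 0.414 RPKM.

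The highest member was Cyp12a4, a mitochondrial P450 whose overexpression is known to confer resistance to lufenuron. It stood at 27.4 and 27.2 RPKM in the 2 libraries, with a mean of 27.3 ± 0.146 (SD, n = 2), on at least 1726 and 439 reads. This level was above 94.5% of all genes in the table and made up 20.9% of the summed level of the family. The neighbouring gene Cyp12a5 had 9.77 and 8.88 RPKM. Both libraries thus placed Cyp12a4 well above its neighbour, by more than the spread of either gene.

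Next in the order were Cyp9c1 at 18.3 and 14.9 RPKM and Cyp9f2 at 11.2 and 10.2 RPKM, both CYP3 clan members. They were the exceptions of their family. The other members of family 9, Cyp9b1, Cyp9b2 and Cyp9h1, had 0.0308, 0.0324 and 0.200 RPKM in replicate 1 and were listed at 0 in replicate 2. On 1.7 kb the limit of 3 reads in that library was 0.186 RPKM, which is above the replicate 1 level of Cyp9b1 and Cyp9b2 and near that of Cyp9h1.

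Cyp310a1, the sole member of its family, was at 7.23 and 7.16 RPKM, and Cyp4ac2, the highest CYP4 member, at 6.70 and 6.29 RPKM. Cyp6a20, a gene linked to aggressive behaviour in flies, had 7.16 and 4.45 RPKM. With it the members at 5 RPKM or more end, and their order was the same in both libraries except that Cyp6a20 stood before Cyp4ac2 in replicate 1 and behind it in replicate 2.

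Between 1 and 5 RPKM lay 14 members. Cyp6a17, a gene that affects temperature preference and pyrethroid tolerance, had 4.12 and 4.36 RPKM. Cyp6u1 had 4.07 and 4.41 RPKM, Cyp28d1 had 3.64 and 2.80 RPKM, Cyp4d2 had 2.75 and 3.00 RPKM and Cyp4d14 had 3.27 and 2.37 RPKM. Cyp6a23, the closest relative of Cyp6a17, had 2.14 and 2.88 RPKM, and how reads that fit both genes were counted is not known, so their separate levels are uncertain. These values were spread over a narrow range, and the order within it was not stable between the libraries.

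Cyp12e1 had 2.01 RPKM in both libraries, Cyp6v1 had 1.78 and 1.94 RPKM, Cyp12c1 had 1.97 and 1.57 RPKM, Cyp4ae1 had 1.499 and 1.46 RPKM and Cyp4ac3 had 1.19 and 1.53 RPKM. The last members over the threshold crossed it in 1 library only. Cyp6a14 had 0.830 and 1.55 RPKM, Cyp12d1-d had 1.27 and 0.930 RPKM, and Cyp6a8 had 1.76 and 0.414 RPKM. Counted with its near-identical copy Cyp12d1-p, at 1.02 and 0.786 RPKM and a mean under the threshold, 4 members were on different sides of 1 RPKM in the 2 libraries, 18 were at or above it in both and 65 below it in both. Reads that fit both copies of Cyp12d1, a gene induced by caffeine and phenobarbital, could have been split or counted for each, so their separate levels are uncertain.

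Along the order of these 21 genes, 10 of the 20 pairs of neighbours had library values that overlapped. By these point values, which leave out counting error, the first 5 genes were each set apart from the next. Among them Cyp9f2 and Cyp12a5 each rested on at least 85 reads in replicate 2. Further down the order, the overlap began with Cyp4ac2 and Cyp6a20, and the last 4 pairs, from Cyp4ae1 to Cyp6a8, all overlapped. The relative SD of the 21 genes had a median of 6.76% and reached 87.5% for Cyp6a8. Across all 87 members the levels of the libraries had a Spearman rho of 0.908, a description over genes of the same libraries.

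By the mean of the libraries, the clans differed in the share of members at 1 RPKM or more. In the mitochondrial clan 5 of 12 members (41.7%) were at 1 RPKM or more, all of them from family 12, and the clan median was 0.856 RPKM. None of its members had a mean under 0.1 RPKM, though dib was under it in replicate 1. In the CYP3 clan, which holds most detoxifying enzymes, 11 of 36 members (30.6%) reached 1 RPKM, with a median of 0.374 RPKM. The CYP4 clan had 5 of 32 members (15.6%) at that level and a median of 0.0800 RPKM, with 18 members at a mean under 0.1 RPKM. None of the 7 members of the CYP2 clan reached 1 RPKM, and the highest was spo. Among the members counted, Cyp12d1-d of the mitochondrial clan and Cyp6a14 and Cyp6a8 of the CYP3 clan reached 1 RPKM in 1 library only. The clan shares describe 2 libraries of 1 line, and no test was made between clans.

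**Figure D2:**
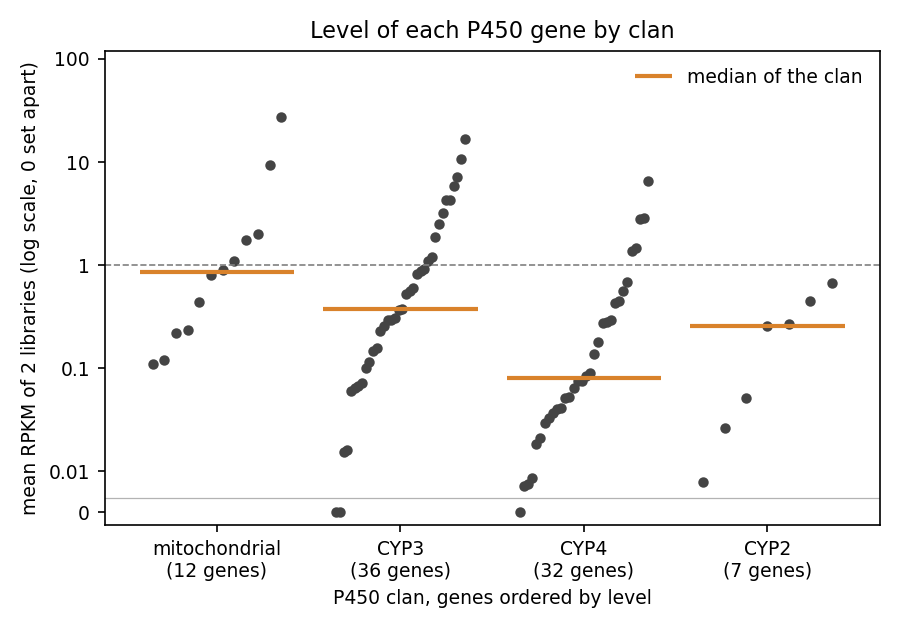
Mean RPKM over both libraries of each of the 87 P450 genes by clan, on a log axis with 0 set apart; bars mark clan medians and the dashed line marks 1 RPKM. The medians run from 0.856 RPKM in the mitochondrial clan to 0.0800 RPKM in the CYP4 clan.

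Summed over genes, the CYP3 clan held 50.3% of the level of the family, the mitochondrial clan 33.9%, the CYP4 clan 14.5% and the CYP2 clan 1.32%. Within the mitochondrial clan nearly all of the sum lay in family 12, whose 7 members ran from 0.808 RPKM for Cyp12b2 to 27.3 RPKM for Cyp12a4. Its other members were low, with Cyp49a1 at 0.262 and 0.181 RPKM and Cyp301a1, a gene needed for the adult cuticle, at 0.111 and 0.109 RPKM. The Cyp313 genes of the CYP4 clan were the lowest of the larger families, with 6 members from 0.00759 to 0.178 RPKM. The 2 largest families, 4 and 6, each had 22 members, and 5 and 7 of these were at 1 RPKM or more.

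Ecdysone is made from dietary sterol in the prothoracic gland by a chain of P450 enzymes known as the Halloween genes, and is turned into the active hormone by shd in other tissues. All 6 P450 genes of this chain were under 1 RPKM. The highest was spo, which acts early in the chain in the embryo and ovary, at 0.679 and 0.674 RPKM on at least 55 and 14 reads. spok, its paralogue in the larval gland, had 1 read in replicate 1, or 0.0159 RPKM, and 0 in replicate 2, where 3 reads would give 0.186 RPKM.

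The hydroxylases of the later steps were not alike in level. sad had 0.472 and 0.416 RPKM on at least 31 and 7 reads. dib rested on 6 and 3 reads, at 0.0820 and 0.160 RPKM, and phm on 0 and 1 read, at 0 and 0.0529 RPKM. shd, the last step, had 0.158 and 0.309 RPKM. By point value spo and then sad were the highest of the chain in both libraries. In replicate 2 sad rested on at least 7 reads and shd on at least 8, so their order there is uncertain. The genes phm and spok differed by 1 read in each library and were not distinguishable at this depth.

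Cyp18a1, the enzyme that inactivates ecdysteroids, was at 0.0159 and 0.0861 RPKM. Its best covered entry rested on at least 2 reads in each library. The gene lies next to phm, and both were among the lowest members of the family.

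**Figure D3:**
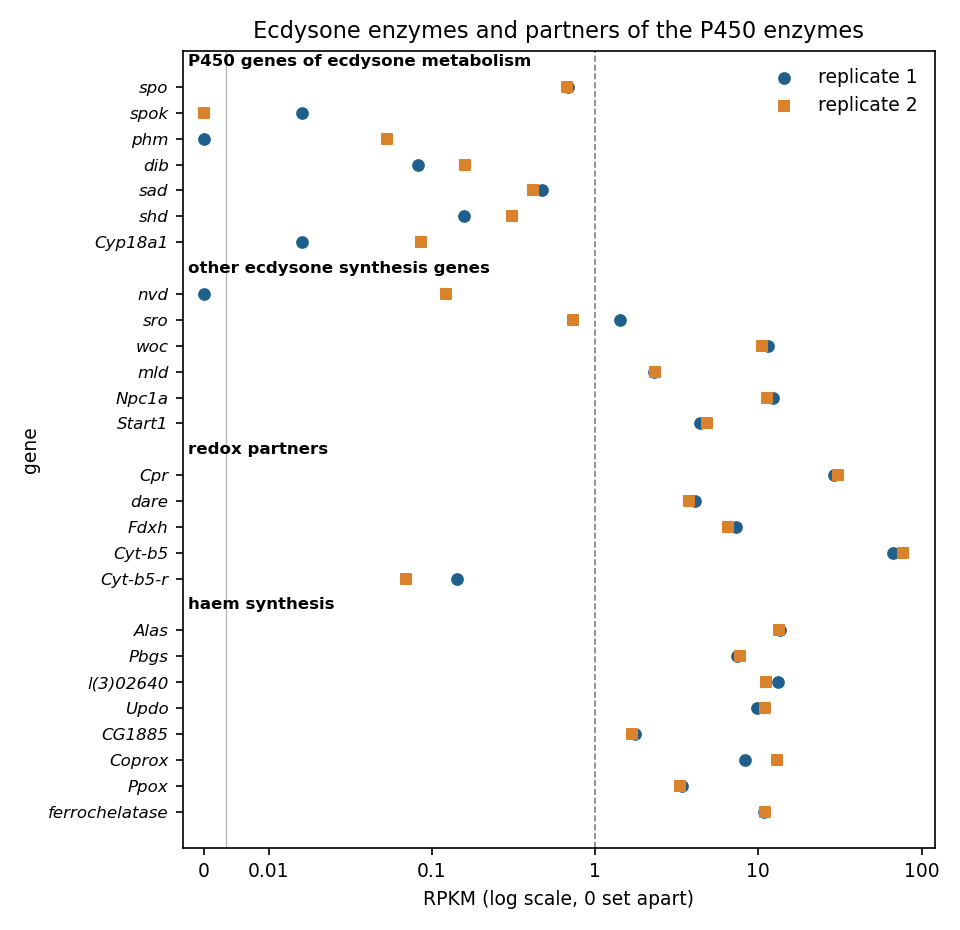
RPKM in replicates 1 and 2 of the ecdysone P450 genes and Cyp18a1, of other ecdysone synthesis genes, of redox partners and of haem synthesis genes, on a log axis with 0 set apart and a dashed line at 1 RPKM. The 7 P450 genes lie under 1 RPKM in both libraries, and 17 of the 19 genes on the other lists have a mean of at least 1 RPKM. Of all genes, 49.5% have such a mean.

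Other genes of the ecdysone route had values for 6 of 8 symbols looked up, of which 5 had a mean of at least 1 RPKM. Among all genes 49.5% had such a mean. The oxygenase gene nvd, which acts on cholesterol before the P450 enzymes, was listed at 0 in replicate 1 and had 0.122 RPKM in replicate 2. The dehydrogenase gene sro had 1.42 and 0.731 RPKM. Npc1a, a sterol transport gene, had 12.2 and 11.2 RPKM, the zinc finger gene woc 11.4 and 10.6 RPKM, Start1 4.41 and 4.86 RPKM and mld 2.29 and 2.34 RPKM. None of the 5 tested genes on this list passed the test between libraries described below, where 14% of all tested genes did. Of the 3 gland markers fixed for comparison, tor had 0.378 and 0.167 RPKM, and the others were nvd and phm.

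Of the 5 redox partners with values 4 were at 1 RPKM or more, where 49.5% of all genes were. Cpr, the shared electron donor of the microsomal enzymes, had 28.9 and 30.9 RPKM, or 29.9 ± 1.43 (SD, n = 2). This exceeded the highest P450 gene in both libraries. Cyt-b5 had 66.6 and 77.1 RPKM, and was higher in replicate 2 by the exact binomial test between libraries (adjusted p = 0.0456). It was the only 1 of 4 tested partners to pass, and 8.77% of all tested genes passed in that direction. On the mitochondrial side Fdxh, a ferredoxin gene, had 7.33 and 6.54 RPKM and dare 4.12 and 3.77 RPKM, both below Cyp12a4 and Cyp12a5. Cyt-b5-r was at 0.143 and 0.0698 RPKM.

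P450 enzymes carry haem, and all 8 haem synthesis genes with values were at 1 RPKM or more, where 49.5% of all genes were. They ran from CG1885 at 1.77 and 1.68 RPKM to Alas, the gene of the first and rate-limiting step, at 13.6 and 13.3 RPKM. Coprox was the member with the widest spread, at 8.24 and 12.9 RPKM, and passed the exact binomial test, higher in replicate 2 (adjusted p = 3.29e-05). The gene of porphobilinogen deaminase, at 13.3 and 11.1 RPKM, passed the same exact test in the other direction (adjusted p = 0.0495).

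Of 9 regulators of P450 genes with values, 7 were at 1 RPKM or more, where 49.5% of all genes were. The ecdysone receptor genes EcR and usp had 5.75 and 6.69 RPKM and 6.38 and 9.22 RPKM. The stress regulator cnc had 5.83 and 5.46 RPKM, its partner Keap1 2.11 and 1.71 RPKM, the xenobiotic receptor gene Hr96 2.19 and 1.49 RPKM and tgo 3.51 and 4.48 RPKM. ftz-f1 stood at 5.01 and 6.51 RPKM. ss and vvl were at 0.0135 and 0.0123 RPKM in replicate 1 and at 0 in replicate 2. EcR, usp and ftz-f1 were higher in replicate 2 by the exact binomial test (adjusted p = 0.0179, 1.88e-04 and 0.0437). They were 3 of the 7 genes tested on this list, where 8.77% of all tested genes passed in that direction. None (0) of the list passed in the direction of replicate 1.

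Some well known P450 genes of other tissues and of insecticide resistance were low here, unlike Cyp12a4. Cyp4g1, which makes cuticular hydrocarbons in oenocytes, had 0.0830 RPKM on at least 7 reads in the deeper library and 0 in the other. Its relative Cyp4g15, known from the nervous system, had 1 read in replicate 1. Cyp6g1, whose overexpression confers DDT resistance, had 0.379 and 0.204 RPKM on at least 29 and 4 reads. Cyp6a2, another gene tied to insecticide resistance, had 0.129 RPKM and 0. The limit of 3 reads in replicate 2 was 0.139 RPKM for Cyp4g1 and 0.186 RPKM for a transcript of 1.7 kb, above the replicate 1 levels of Cyp4g1 and Cyp6a2. Other members with well known roles stood higher. The means of Cyp12d1-d, Cyp6a8 and Cyp12d1-p were 1.10, 1.09 and 0.905 RPKM, and that of Cyp6a17, tied above to pyrethroid tolerance, was 4.24 RPKM.

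Many P450 genes lie side by side, which allowed the levels of neighbours to be set next to each other. In the gene order of the RefSeq table of Release 6, 45 members fell into 16 runs with no other protein-coding gene starting between them. Of the 16 runs, 9 had no member at 1 RPKM or more, 5 had members on both sides of 1 RPKM and 2 had all their members at or above it, by the mean of the libraries. Runs on both sides of 1 RPKM numbered 3 in replicate 1 alone and 4 in replicate 2 alone, and the pair of Cyp12d1 copies, whose separate levels are uncertain, is 1 of the 5. Of the 45 members in runs 14 were at 1 RPKM or more, as were 7 of the 42 outside runs.

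The longest run held 9 genes, 8 of subfamily Cyp6a and Cyp317a1, and its levels alternated. Cyp6a22 had 0.844 and 0.915 RPKM, and Cyp6a17 and Cyp6a23 after it were above 2 RPKM in both libraries. Cyp6a19 and Cyp6a9, at 0.353 and 0.247 RPKM in replicate 1, separated them from Cyp6a20. Cyp6a21 came next, at 0.165 and 0.129 RPKM, followed by Cyp6a8 and by Cyp317a1 at 0.381 and 0.203 RPKM. From its lowest to its highest mean, Cyp6a21 to Cyp6a20, the run spanned a 39.5-fold range, and the values of these 2 genes were far apart in both libraries.

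Runs of 3 genes showed other patterns. Cyp4d14, Cyp4d2 and Cyp4ae1 were all above 1 RPKM, and their means lay within a 1.94-fold range. In the run of Cyp4ac1, Cyp4ac2 and Cyp4ac3 the middle gene was highest, and Cyp4ac1 had 0.729 and 0.632 RPKM. The run of Cyp6g1, Cyp6g2 and Cyp6t3 stayed under 1 RPKM, with Cyp6g2 at 0.760 and 0.371 RPKM and Cyp6t3 at 0.972 and 0.870 RPKM. Cyp313a5, Cyp313a2 and Cyp313a3 had at least 1, 2 and 1 reads in replicate 1. Among the pairs, the mean of Cyp28d1 was 8.55-fold above that of its neighbour Cyp28d2, at 0.565 and 0.189 RPKM, and that of Cyp12a4 was 2.93-fold above that of Cyp12a5.

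**Figure D4:**
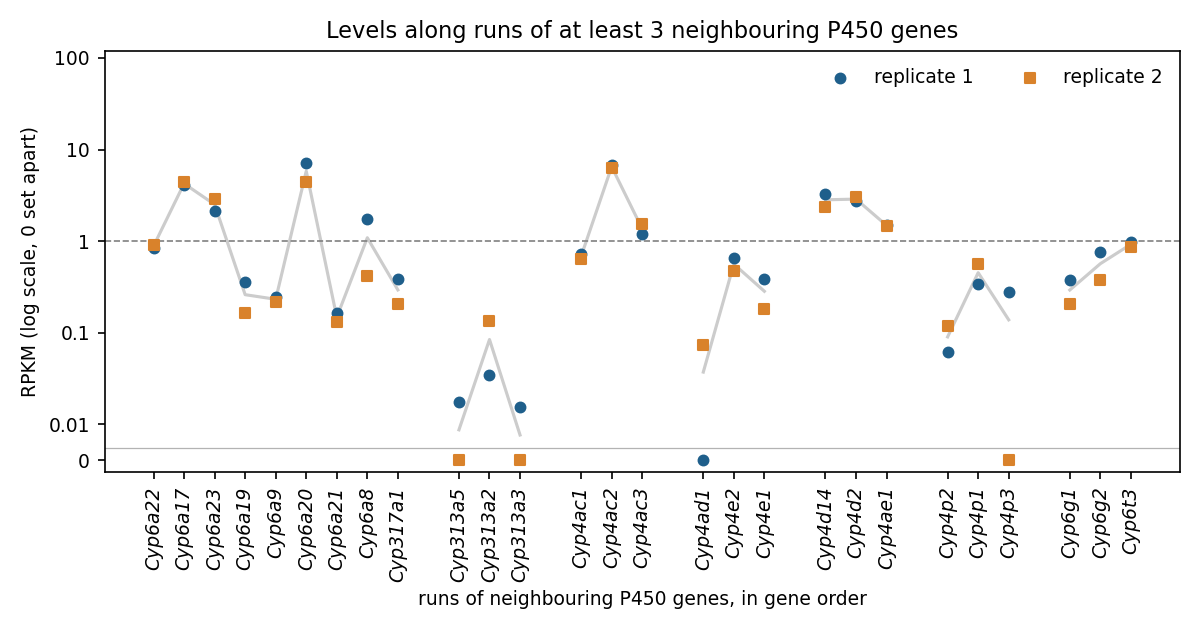
RPKM in replicates 1 and 2 along the 7 runs of at least 3 neighbouring P450 genes, in gene order, on a log axis with 0 set apart; the grey line joins the means and the dashed line marks 1 RPKM. The run of 9 genes rises and falls between 0.147 and 5.80 RPKM, and the run that starts with Cyp4d14 stays above 1 RPKM.

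Entries for alternative transcripts existed for 11 members. Both entries of Cyp4d14 gave 3.29 and 3.26 RPKM in replicate 1 and 2.37 and 2.38 RPKM in replicate 2. For Cyp28c1 both entries rested on at least 25 and 3 reads in the libraries, with recovered lengths of 1665 and 1543 bases. The same number of reads was thus counted for each entry, and the entries differed only by length. Of the 9 members with 2 entries, 4 had them in opposite order in the 2 libraries, namely Cyp4d14, Cyp18a1, Cyp311a1 and Cyp4d1. In Cyp4d1 one entry was at 0.208 and 0.313 RPKM and the other at 0.390 and 0.264 RPKM, on at least 13 and 5 against 23 and 4 reads. The 3 entries of shd ran from 0.145 to 0.215 RPKM in replicate 1 and from 0.282 to 0.387 RPKM in replicate 2.

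How far the 2 libraries differed beyond counting error was tested by an exact two-sided binomial test on the reads of the best covered entry of each gene, against the share of replicate 2 in all reads, 20.4%. The test sets these libraries against each other, not a condition, and with 1 group no test across samples exists. Of 53 members with at least 10 reads, 3 passed after Benjamini-Hochberg adjustment over the 9883 genes tested, or 5.66%, where 14% of all tested genes did. All 3 were higher in replicate 1, a direction that 5.21% of all tested genes took, and none (0) of the members passed in the direction of replicate 2, taken by 8.77% of all tested genes. The other 34 members were not tested, as their minimum reads were under 10. The shares of members and of all genes that passed were not matched for read number, on which the power of the test depends. The median level was 0.273 RPKM over members and 0.919 RPKM over all genes. By a plain rule of more than 2-fold on the log2(RPKM + 1) scale no member (0 of 87) differed, and 0.518% of all genes did.

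Cyp6a8, a gene known for its induction by caffeine and phenobarbital, rested on at least 116 and 7 reads in replicates 1 and 2. Its reads scaled to library size were 4.25-fold higher in replicate 1 (95% interval 1.997 to 10.8, Clopper-Pearson; exact binomial test, adjusted p = 1.59e-04). Cyp6a20 had at least 477 and 76 reads and was 1.61-fold higher in replicate 1 (1.26 to 2.08, adjusted p = 8.87e-04, same exact test). Cyp9c1, with 1185 and 247 reads, was 1.23-fold higher (1.07 to 1.42, adjusted p = 0.0243, same exact test). Cyp6a8 and Cyp6a20 lie in the same run of neighbours. Cyp6a21 between them had at least 10 and 2 reads, too few for the test to decide. Its interval, 0.273 to 12.0 (replicate 1 over replicate 2), covered the folds of both neighbours. 1 further member, Cyp4p3, had an unadjusted p of 0.0330 in the exact test but did not pass after adjustment (0.155), on at least 17 and 0 reads.

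For the other 18 members at 1 RPKM or more the interval of the fold, taken at the minimum reads, included 1. It was narrow for Cyp12a4, from 0.907 to 1.12 (replicate 1 over replicate 2), and wide for Cyp6a14, from 0.258 to 1.17. Cyp6a14 rested on at least 25 and 12 reads at a recovered length of 813 bases. More reads behind the same values would narrow its interval, so whether that interval includes 1 is not settled. Low genes in general read higher in the deeper library. Of the 63 members above 0 and under 1 RPKM 49 (77.8%) were higher in replicate 1, as were 74.4% of all genes in that range. At 1 RPKM or more the share was 14 of 21 members (66.7%) against 47.7% of all genes. The part of depth in this split was not tested.

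**Figure D5:**
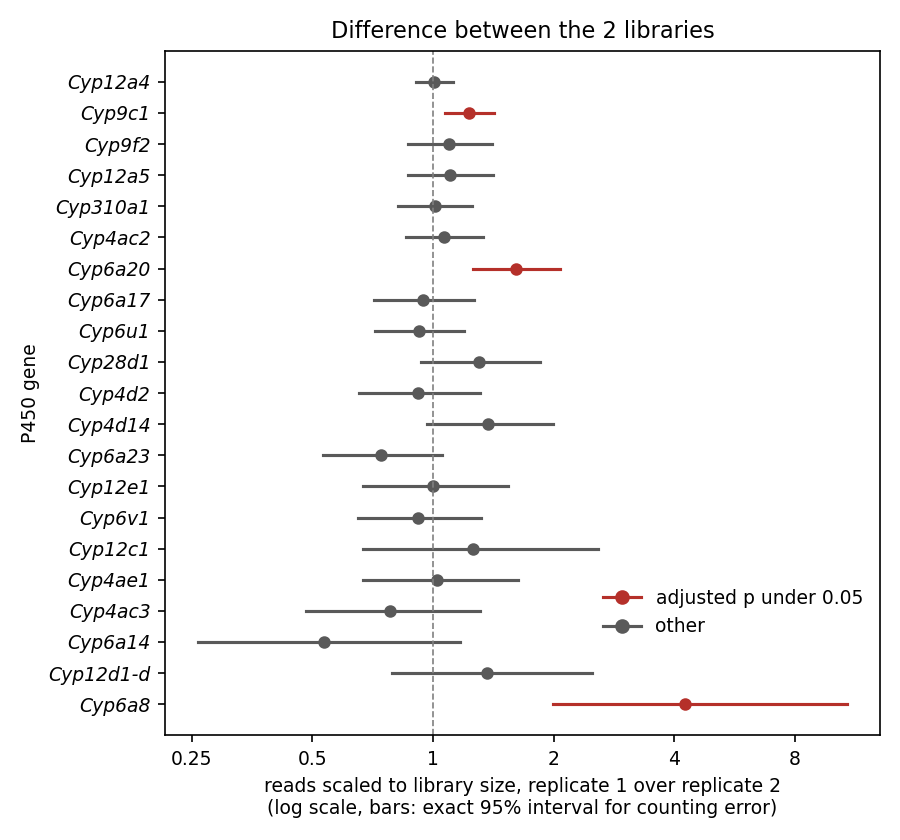
Reads scaled to library size in replicate 1 over replicate 2 for the 21 P450 genes whose mean reached 1 RPKM, on a log axis with exact 95% intervals for counting error. Cyp6a8, Cyp6a20 and Cyp9c1, in red, have an adjusted p under 0.05 and lie at 4.25, 1.61 and 1.23. The intervals of the other 18, taken at the minimum reads, include 1.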

How the data were processed

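RNA of S2 cells was depleted of ribosomal RNA and sequenced as single-end reads of 50 bases. The study's methods name TopHat as the aligner and release 5 as the genome (dm3 in the submitters' processing notes). The deposited values are RPKM, computed by the authors per RefSeq transcript with replicates kept apart. The program that made them and its treatment of reads shared by isoforms or gene copies are not given in the sources used here. Gene levels were the median over transcript entries, with no filter. Library sizes and reads were recovered from the steps in the values (99.9% of entries above 0 gave whole reads) and are minimum values, as a factor common to reads and length cannot be seen. The recovery and the binomial test were tested on data simulated with counting error alone. How the test behaves with further spread between libraries was not examined. Neighbours came from the order of genes in a RefSeq table of Release 6, matched by transcript for 100 of 101 entries, with no coordinates used. Genes in the text are the members whose mean reached 1 RPKM, the ecdysone genes, members called between libraries, members with well known roles and the partner, regulator and marker lists; other members were named after their values were seen. Members and lists were chosen with earlier results of these data known. Nothing states that the replicates are separate cultures in the labels, though the study names them biological replicates, so errors measure the spread between these 2 libraries. Python 3.11.15, NumPy 2.4.6, pandas 2.3.3, SciPy 1.17.1 and matplotlib 3.10.9 were used.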

Additional observations from a re-analysis of the deposited data

How the results depend on the processing

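No paired analysis was possible because the libraries used form 1 group. The counts of P450 genes at 1 and 5 RPKM and the median level stayed within 1.5 times or 1 SD of the reported values with the mean or highest entry per gene, scaling to a common median (by 0.02, log2), both libraries at the threshold, and each library left out. The number of members at 0, which is 3, was 5 without replicate 2 and 21 without replicate 1, because a single library then decides. Cyp6a8, Cyp6a20 and Cyp9c1 passed the exact binomial test in all 4 alternative forms, one of which, raising reads to a length of at least 1000 bases, was chosen after seeing the data. Each of these genes has 1 entry with a recovered length above 1000 bases, so its reads were the same in every form. Only the adjustment over genes or the expected share could change, so this agreement says little about how firm the calls are. By a fold of more than 2 in place of the test, none (0) passed on the log2(RPKM + 1) scale, where 0.518% of all genes did, and 12 (13.8%) with a pseudocount of 0.1, all higher in replicate 1 and 1 of them among those 3, where 9% of all genes did. Depth limits what can be said of the 34 members whose minimum reads were under 10. With reads raised to a length of at least 1000 bases, 54 members were tested in place of 53.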
